A study of Rattus norvegicus with 9 samples.

Results

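The 10 genes described here encode surface and junction proteins by which endothelial cells are usually recognised: Pecam1, Cdh5, Kdr, Flt1, Tek, Tie1, Emcn, Ehd3, Plvap and Eng. They were chosen by name, and 9 of the 10 were matched among the 18420 gene rows of the table. Pecam1 was not matched and is not analysed here. The rats were diabetic and of the obese ZDF strain, with the genotype fa/fa. RNA had been sequenced from their flash-frozen kidney cortex, and all 9 samples are replicates labelled Medical Bypass. The labels give no drugs, doses, ages or sex for that treatment, and no untreated, surgical or lean group was analysed here, so every comparison is among the 9 treated replicates and no effect of treatment can be read from it. The labels do not say that the replicates are separate animals. A p-value here therefore reflects the spread among these 9 libraries alone, and that spread may be technical.

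Endothelial cells read several growth factor families through these receptors. Vascular endothelial growth factor (VEGF), made in the glomerulus mainly by podocytes, signals through Kdr, the main signalling receptor, and binds Flt1, which holds VEGF tightly and signals weakly. Angiopoietins act on Tek, also called Tie2, with Tie1 as its partner receptor, while endoglin (Eng) assists receptors of the TGF-beta and BMP families. VE-cadherin (Cdh5) forms the adherens junction between neighbouring endothelial cells. Plvap builds the diaphragms of fenestrated peritubular capillaries and is scarce in mature glomerular capillaries, Ehd3 is a trafficking protein known as a glomerular endothelial marker in mouse, and endomucin (Emcn) is a sialomucin of the endothelial surface.

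RefSeq promoters, taken as the 250 bases before the gene's start on build GRCr8, were found for 7 of the 9 matched genes. Cdh5 and Tek are named only. The 4 printed here belong to Flt1 and Kdr, the VEGF receptors, and to Plvap and Eng, which varied in the opposite direction to Tek across the replicates. Each runs 5′ to 3′ on the strand of the gene. Capitals mark AGGAAG, a core bound by ETS factors, and TATAAA, the TATA box, on either strand.
Flt1, chr12:12333180-12333429, plus strand: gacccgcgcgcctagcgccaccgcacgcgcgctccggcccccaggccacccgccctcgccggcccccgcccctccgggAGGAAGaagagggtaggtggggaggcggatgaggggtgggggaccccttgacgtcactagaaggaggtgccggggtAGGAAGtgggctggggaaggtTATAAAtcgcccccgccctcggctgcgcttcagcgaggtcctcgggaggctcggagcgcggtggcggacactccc
Kdr, chr14:32571813-32572062, plus strand: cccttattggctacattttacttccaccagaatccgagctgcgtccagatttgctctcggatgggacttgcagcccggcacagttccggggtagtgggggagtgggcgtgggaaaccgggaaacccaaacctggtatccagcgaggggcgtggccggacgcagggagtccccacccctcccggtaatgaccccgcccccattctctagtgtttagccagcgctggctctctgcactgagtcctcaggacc
Plvap, chr16:18231280-18231529, minus strand: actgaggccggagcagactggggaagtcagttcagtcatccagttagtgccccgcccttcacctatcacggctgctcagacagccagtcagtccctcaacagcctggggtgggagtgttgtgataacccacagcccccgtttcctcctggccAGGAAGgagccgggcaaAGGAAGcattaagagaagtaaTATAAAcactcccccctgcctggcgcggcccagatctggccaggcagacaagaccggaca
Eng, chr3:36332029-36332278, plus strand: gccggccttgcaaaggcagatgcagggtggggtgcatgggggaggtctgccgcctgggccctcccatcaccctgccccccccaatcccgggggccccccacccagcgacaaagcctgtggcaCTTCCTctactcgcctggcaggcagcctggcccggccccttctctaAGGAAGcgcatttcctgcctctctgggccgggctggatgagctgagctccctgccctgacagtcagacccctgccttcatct
The search covered both strands for AGGAAG, for the related ETS core CGGAAG, for the GC box GGGCGG and for TATAAA. The ETS cores differ in their first letter, so 1 position cannot count for both. AGGAAG occurred 2 times each in Flt1, Emcn, Plvap and Eng, 1 time in Tie1, and 0 times in Kdr and Ehd3. Thus 5 of 7 windows held it, against 29.5% of 33469 RefSeq promoters of the same length. CGGAAG occurred in 0 of the 7, against 13.9% of all promoters. TATAAA was present in Flt1 and Plvap, 2 of 7, against 12.9% of all promoters. The GC box was present in 5 of 7, with 3 copies in Flt1, against 30.5% of all promoters. Both the gene that fell furthest with the library measure described later (Flt1) and the one that rose furthest with it (Plvap) carried AGGAAG and TATAAA. These matches describe letters in the windows only.

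The libraries held between 10757440 reads in genes in replicate 3 and 43071223 in replicate 8. Values are normalised reads, the reads of a gene divided by the size factor of its library, so they are not corrected for gene length and levels are not compared between genes. Other endothelial genes were present in every replicate, with means of 71.6 normalised reads for Vwf, 209.9 for Nos3, 156.2 for Erg and 873.8 for Esam. Others were at or near 0: Gpihbp1, a capillary protein, averaged 0.995 with several replicates at 0, Selp averaged 5.73 with replicate 3 at 0, and Sele averaged 5.20. RNA of other cell types was present as well. Summed levels of 13 podocyte genes ran from 15784 to 22739 normalised reads, and those of 11 proximal tubule genes from 174353 to 333654. Those of 9 leukocyte and platelet genes ran from 6382 to 8935, with Lyz2 alone averaging 5906. The genes summed were those with a mean of at least 10, so none of them could stand at 0 in all 9 libraries. Replicate 5 stood apart in its sequencing: 22.1% of its counted reads aligned to more than 1 place, against 14.9% to 19.2% in the other replicates.

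The VEGF receptors varied together, Flt1 more widely than Kdr. Flt1 ranged from 558.6 normalised reads in replicate 5 to 1505 in replicate 9, with a median of 733.2 and a mean of 928.8 ± 356.6 (SD, n = 9). Its replicates formed a high set of 4 (replicates 2, 3, 6 and 9) and a low set of 5. Kdr ranged from 2433 in replicate 5 to 4130 in replicate 6, with a median of 3245 and a mean of 3252 ± 571.8 (SD, n = 9). Replicates 3, 6 and 9 were again the highest. The ratio of Flt1 to Kdr reads ran from 0.212 in replicate 8 to 0.390 in replicate 9, so the range was 1.84-fold however the libraries were scaled. In bulk tissue, fewer endothelial cells and less RNA per endothelial cell cannot be told apart.

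The angiopoietin receptors did not vary together. Tek ranged from 1173 normalised reads in replicate 5 to 2166 in replicate 3, with a median of 1600 and a mean of 1608 ± 351.5 (SD, n = 9). Replicates 3 and 9 were high and replicates 5 and 8 were low. Tie1 had a narrower range, from 1180 in replicate 4 to 1861 in replicate 1, with a median of 1449 and a mean of 1436 ± 206.9 (SD, n = 9). Replicates 3 and 9, the highest in Tek, were among the 4 lowest in Tie1. The ratio of Tek to Tie1 reads consequently spanned 2.22-fold, from 0.793 in replicate 1 to 1.76 in replicate 9.

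Endoglin and Plvap were high where Tek was low. Eng ranged from 2076 normalised reads in replicate 3 to 4318 in replicate 8, with a median of 3448 and a mean of 3486 ± 778.8 (SD, n = 9). The 3 replicates with the most Tek had 3 of the 4 lowest Eng values. Plvap ranged from 2480 in replicate 3 to 5107 in replicate 5, with a median of 2933 and a mean of 3245 ± 866.1 (SD, n = 9). Replicates 5 and 8, the lowest in Tek, were the highest in Plvap. The ratio of Tek to Plvap reads spanned 3.80-fold, from 0.230 in replicate 5 to 0.873 in replicate 3, and that of Flt1 to Eng spanned 3.74-fold.

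VE-cadherin followed Tek. Cdh5, counted with 276 to 642 reads per library and thus the least precise of the 9 genes, ranged from 295.7 normalised reads in replicate 5 to 549.4 in replicate 3, with a median of 424.7 and a mean of 403.1 ± 85.1 (SD, n = 9). Replicates 4, 5, 7 and 8 were the lowest, as they were in the ratio of Ehd3 to Plvap described later. Emcn ranged from 1917 in replicate 2 to 3056 in replicate 9, with a median of 2660 and a mean of 2622 ± 376.2 (SD, n = 9). Ehd3 ranged from 777.7 in replicate 7 to 1264 in replicate 1, with a median of 889.8 and a mean of 935.1 ± 163.4 (SD, n = 9). Neither gene singled out the replicates in which Flt1 and Tek were high: Emcn was lowest in a replicate with high Flt1, and Ehd3 was highest in one with low Flt1.

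**Figure D1:**
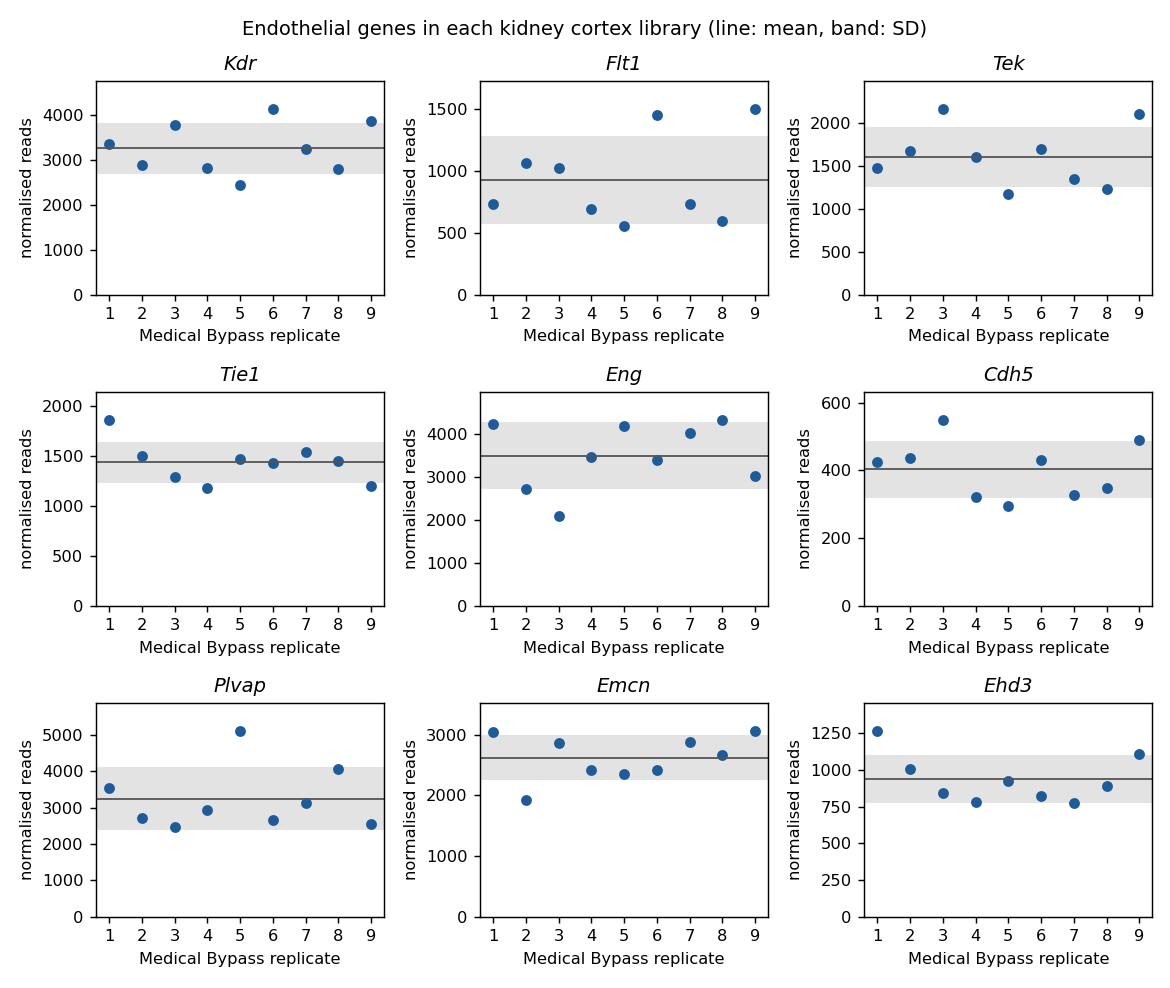
Level of each of the 9 matched genes in each replicate, in normalised reads; points are single replicates, the line is the mean and the band is 1 SD on either side. Flt1 spans 2.69-fold between its lowest and highest replicate and Tie1 1.58-fold.

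Set against the whole table, the median spread of these genes was near that of all tested genes. The highest replicate exceeded the lowest by 1.58-fold in Tie1 to 2.69-fold in Flt1, with a median of 1.85-fold over the 9 genes and 2.01-fold over 13637 genes with a value above 0 in every replicate. The coefficient of variation was 14.3% in Emcn, 14.4% in Tie1, 17.5% in Ehd3, 22.3% in Eng, 26.7% in Plvap and 38.4% in Flt1. Its median was 21.1% over the 9 genes and 23.0% over the 13647 genes tested. Against the trend of variance on level, the variance of Flt1 was 4.23 times the expected value (limma, adjusted p = 0.961), and that of Tie1 was 0.649 times it. Of the 9 genes, 0 passed in limma's variance test and 0 had an unadjusted p under 0.05, beside 0% called and 718 at that unadjusted level over all 13647. The trend and the spread about it were fitted to these same tested genes, and the lowest adjusted p of any gene was 0.445. A count of 0 therefore does not show that the 9 genes varied as other genes did. No other tool was run for this test.

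Flt1 and Tek fell, and Plvap and Eng rose, in replicates with a larger share of multiply aligned reads (those placed at more than 1 position), a property of the library that ran from 14.9% to 22.1%. In a limma fit over all tested genes, log2 levels changed per SD of that share by -0.42 for Flt1 (SE 0.10, adjusted p = 0.00881), by -0.24 for Tek (SE 0.073, adjusted p = 0.0257), by 0.33 for Plvap (SE 0.057, adjusted p = 0.00235) and by 0.25 for Eng (SE 0.086, adjusted p = 0.0403). These 4 of 9 genes stand beside a background of 35.0% of all tested genes called in either direction, 16.3% rising and 18.7% falling, so a relation to this share is common in the table. The slopes of Cdh5 (-0.20, adjusted p = 0.0791) and Kdr (-0.17, adjusted p = 0.0755) had the sign of Flt1 and did not pass. Those of Tie1 (0.08), Ehd3 (0.05) and Emcn (0.02) had adjusted p-values of 0.414 to 0.857. The median slope was 0.02 over the 9 genes and 0.02 over all tested genes. Without replicate 5 only Flt1 (slope -0.39) and Plvap still passed, and Tek had an adjusted p of 0.128. In that fit 1740 of all tested genes passed, 531 rising and 1209 falling, so leaving out this 1 library also lowered the background and moved its split. Eng missed the threshold with no filter on low values (0.0516), and without replicate 1, 2, 3, 4, 8 or 9 (adjusted p up to 0.0831). Kdr passed without replicate 1 or 2 (0.0446 and 0.0328), and Cdh5 passed without replicate 1 (0.0461). Under a scaling of each library to the same total, which moved whole libraries by -0.13 to 0.17 on the log2 scale, Eng did not pass (0.0862), and over all genes 1489 rose and 2814 fell, beside 2225 and 2549 with the deposited scaling.

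**Figure D2:**
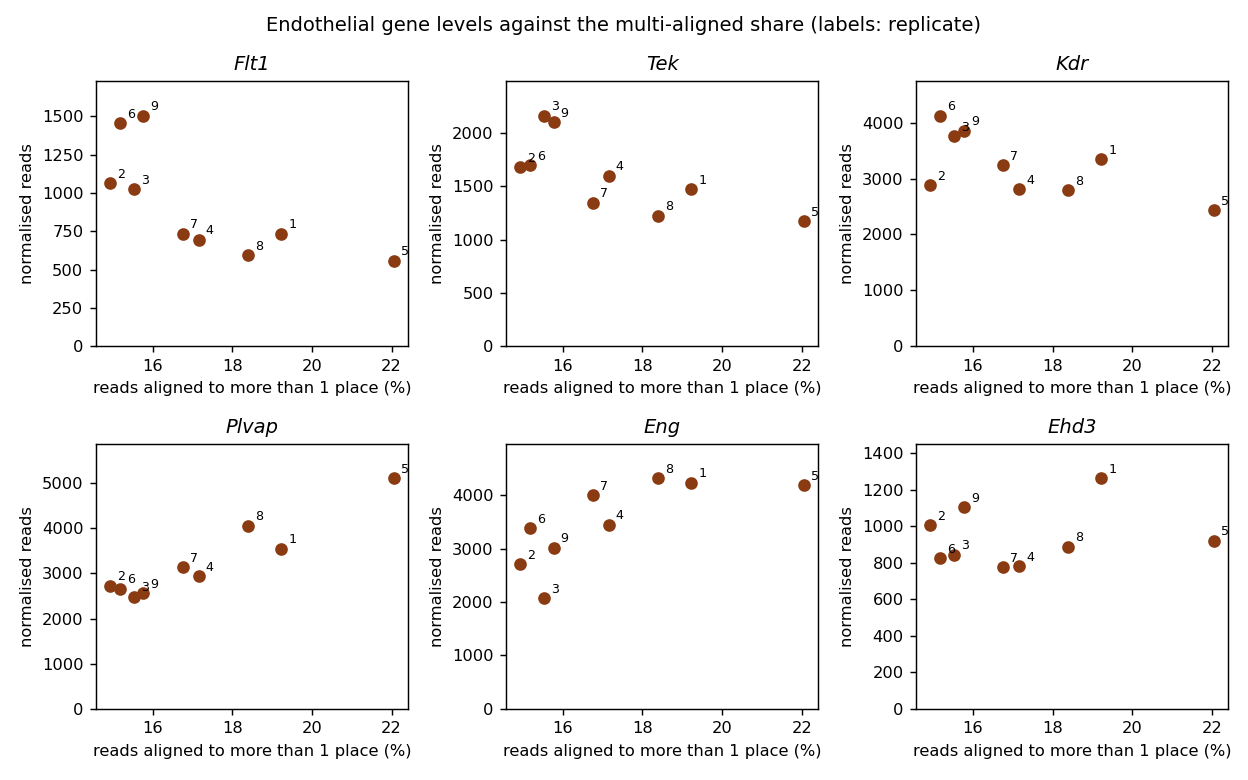
Levels of Flt1, Tek, Kdr, Plvap, Eng and Ehd3 in normalised reads against the percentage of counted reads aligned to more than 1 place, each point labelled with its replicate. Plvap climbs to 5107 in replicate 5, the library with 22.1% of such reads, where Flt1 is at its lowest, 558.6.

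Across replicates Cdh5, Kdr, Flt1 and Tek were positively correlated with each other and negatively with Plvap and Eng. Tie1 had the signs of Plvap and Eng, with r of -0.513 with Tek and 0.429 with Plvap, and passed with neither. Of 36 pairs tested by exact permutation of log2 values, 6 passed after Benjamini-Hochberg adjustment over the pairs, 3 positive and 3 negative, and 13 had an unadjusted p under 0.05. The closest pair was Tek with Plvap, r = -0.893 (exact permutation, two-sided p = 0.000598, adjusted p = 0.0215) and rho = -0.983 (exact p = 4.96e-05). Without the 2 replicates whose Tek level lay farthest from the median, r was -0.877. Of all tested genes, 13.9% were correlated with Tek at least as strongly in size, so a correlation of this size is common in these libraries. Tek with Eng gave r = -0.864 (exact p = 0.00185, adjusted p = 0.0296, rho = -0.867 with exact p = 0.00451, r = -0.795 without the same 2 replicates). Flt1 with Plvap gave r = -0.821 (exact p = 0.00592, adjusted p = 0.0478, rho = -0.833 with exact p = 0.00827, r = -0.876 without its 2 most extreme Flt1 replicates). Of all tested genes, 19.8% were correlated with Tek at least as strongly in size as Eng was. For Flt1 and Plvap the share was 18.9%. Counted from the second gene, the shares were 7.58% for Eng with Tek and 27.7% for Plvap with Flt1.

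The 3 positive pairs lay among Cdh5, Kdr, Flt1 and Tek. Cdh5 with Tek gave r = 0.876 (exact p = 0.00246, adjusted p = 0.0296, rho = 0.867 with exact p = 0.00451, r = 0.939 without the 2 most extreme Cdh5 replicates). Kdr with Flt1 gave r = 0.830 (exact p = 0.00740, adjusted p = 0.0478, rho = 0.883 with exact p = 0.00308, r = 0.688 without the 2 most extreme Kdr replicates), and Flt1 with Tek gave r = 0.821 (exact p = 0.00797, adjusted p = 0.0478, rho = 0.850 with exact p = 0.00607, r = 0.869 without the 2 most extreme Flt1 replicates). Of all tested genes, 3.3% were correlated with Cdh5 at least as strongly in size as Tek was. The shares were 3.3% for Kdr with Flt1 and 18.7% for Flt1 with Tek. Counted from the second gene of each pair, they were 17.6%, 17.4% and 27.8%. Plvap with Eng, r = 0.762, did not pass by Pearson correlation (exact p = 0.0169, adjusted p = 0.0610) and passed by Spearman's (adjusted exact p = 0.0325). Tie1, Emcn and Ehd3 took part in none of the 6 pairs, and Tek with its partner receptor Tie1 gave r = -0.513. With the share of multiply aligned reads removed from both genes by regression, 0 of 36 pairs passed and 5 had an unadjusted p under 0.05, with r = -0.844 for Tek with Plvap (exact p = 0.00535, adjusted p = 0.193). Leaving out single replicates left between 0 pairs, without replicate 5, and 4. The count was 3 without replicate 2, 2 without replicate 3 or 9, and 1 without replicate 7 or 8. Scaling each library to the same total left 3, with Tek with Plvap at r = -0.81 (exact p adjusted to 0.0606).

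**Figure D3:**
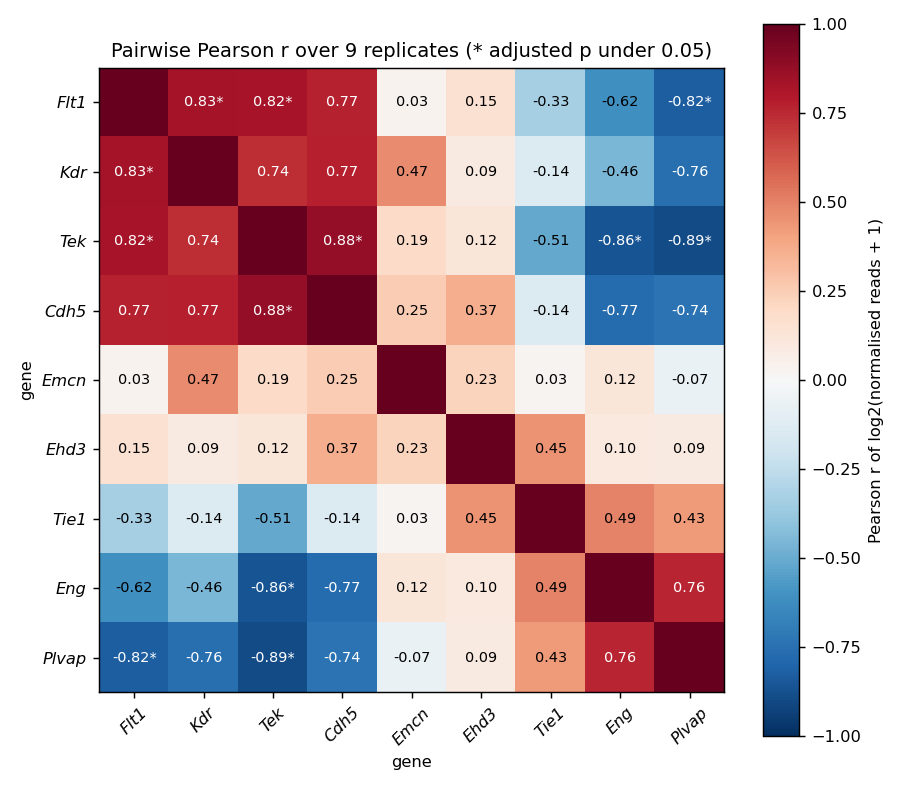
Pearson correlation over the 9 replicates between log2 levels for every pair of the 9 genes, from -1 to 1 by colour, with an asterisk where the adjusted exact permutation p was under 0.05. The asterisks fall on 6 pairs of Cdh5, Kdr, Flt1, Tek, Plvap and Eng, and on none with Tie1, Emcn or Ehd3.

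Of the partner pairs tested, Tek and the gene of its ligand angiopoietin 1 were the closest. Angiopoietin 1 (Angpt1), the agonist of Tek made by perivascular and mesenchymal cells, ranged from 75.4 normalised reads in replicate 5 to 380.1 in replicate 9, with a median of 165.4 and a mean of 197.4 ± 104.4 (SD, n = 9), so it spanned 5.04-fold. Replicates 3 and 9 were high in both genes and replicate 5 was lowest in both. Tek with Angpt1 gave r = 0.971 (exact permutation, two-sided p = 1.65e-05, adjusted p = 0.000182) and rho = 0.983 (exact p = 4.96e-05). Leaving out the 2 most extreme Tek replicates gave r = 0.976. Of the tested genes, 0.997% were correlated with Tek at least as strongly in size and 1.47% with Angpt1. With the share of multiply aligned reads removed, r was 0.944 (exact p adjusted to 0.00182), and without single replicates r ran from 0.96 to 0.98. Angpt2, the context-dependent second angiopoietin, averaged 149.9 ± 22.9 normalised reads (SD, n = 9) and gave r = 0.136 with Tek.

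**Figure D4:**
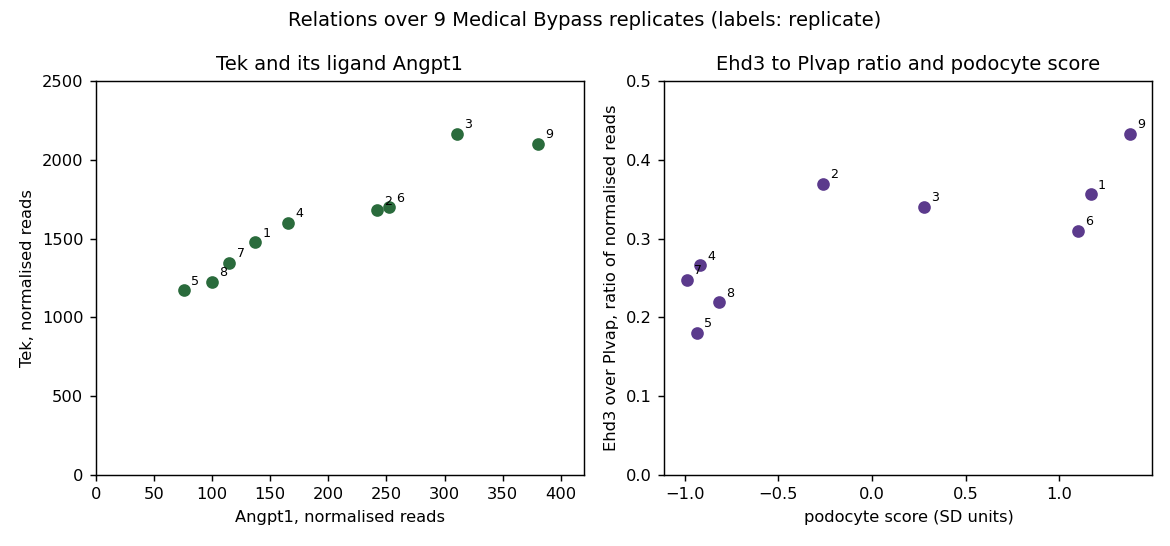
Left, Tek against Angpt1 in normalised reads, 1 point per replicate (r = 0.971 on log2 values). Right, the ratio of Ehd3 to Plvap reads against a score of podocyte gene levels, in which replicates 4, 5, 7 and 8 lie low on both axes and replicate 9 is highest on both.

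Of 16 ligand, coreceptor and junction partner pairs listed, 5 included a gene not matched in the table. Of the 11 tested, 5 passed, all positive, and 6 had an unadjusted p under 0.05. The one that did not pass among those 6 was Eng with Tgfb1, r = 0.714 (exact p = 0.0290, adjusted p = 0.0531). It passed by Spearman's correlation (rho = 0.800, adjusted exact p = 0.0380). Kdr gave r = 0.772 with Vegfa, its main ligand gene (exact p = 0.0148, adjusted p = 0.0446, rho = 0.700 with exact p = 0.0433), and r = 0.758 with neuropilin 1 (Nrp1), a VEGF coreceptor (exact p = 0.0203, adjusted p = 0.0446, rho = 0.733 with exact p = 0.0311). Without the 2 replicates farthest in Kdr the values were 0.442 and 0.468, so both relations rest largely on those replicates. Vegfa itself was steady, from 6007 to 9014 normalised reads with a median of 7674, while Nrp1 ranged from 508.0 in replicate 5 to 1841 in replicate 6 with a median of 1017. Cdh5 gave r = 0.859 with p120-catenin (Ctnnd1), which holds VE-cadherin at the membrane (exact p = 0.00689, adjusted p = 0.0379, rho = 0.800 with exact p = 0.0138). Eng gave r = 0.747 with Acvrl1, the type I receptor it assists (exact p = 0.0189, adjusted p = 0.0446, rho = 0.867 with exact p = 0.00451). By Spearman's rho neither Kdr pair passed after adjustment (adjusted exact p = 0.0793 with Vegfa and 0.0685 with Nrp1), and Eng with Acvrl1 did not pass under the same-total scaling (adjusted exact p = 0.0673). Without the 2 most extreme replicates of the first gene r was 0.813 for Cdh5 with Ctnnd1 and 0.764 for Eng with Acvrl1. Correlations as strong in size were common for most of these genes: 9.19% of tested genes reached that of Vegfa with Kdr, 11.1% that of Nrp1 with Kdr, 4.88% that of Ctnnd1 with Cdh5 and 26.9% that of Acvrl1 with Eng. Counted from the partner, the shares were 1.87% for Vegfa, 36.9% for Nrp1, 22.6% for Ctnnd1 and 17.0% for Acvrl1. These are levels in bulk cortex, and the cell type that the RNA of each partner came from was not tested. Flt1 passed with neither Vegfa (r = 0.618, exact p adjusted to 0.107) nor Vegfb (r = -0.648, adjusted to 0.0934). Only Tek with Angpt1 passed with the share removed. Without single replicates between 1 pair (without replicate 5, 7 or 9) and 5 passed, with 2 left without replicate 4, 6 or 8 and 3 without replicate 2.

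Genes of the wider receptor system were called in both directions on the same library share. Among 13 tested coreceptors and companion receptors, 6 fell and 1 rose with it, with a median slope of -0.15 against 0.02 over all tested genes, where 18.7% fell and 16.3% rose. Those that fell included Nrp1 (-0.60), Nrp2 (-0.52), the TGF-beta receptors Tgfbr1 (-0.53) and Tgfbr2 (-0.42), the BMP receptor Bmpr2 (-0.46) and Cd93 (-0.36), all log2 per SD with limma adjusted p from 0.00199 to 0.0289. Acvrl1 rose (0.25, limma adjusted p = 0.0197), in the same direction as Eng. Among 13 ligands, 3 fell and 2 rose: Angpt1 (-0.66), Vegfd (-0.36) and Tgfb2 (-0.28) fell, and Vegfb (0.40) and Tgfb1 (0.23) rose. Vegfa did not pass (-0.11, limma adjusted p = 0.205).

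Junction, transcription factor and response genes did not take a single direction, and their counts stood near the 35.0% called over all tested genes (16.3% rising, 18.7% falling). Among 13 junction genes Ctnnd1 (-0.34), the tight junction scaffold Tjp1 (-0.32) and Jam2 (-0.21) fell with the share. Claudin 5 (Cldn5, 0.42), a tight junction protein, and Icam2 (0.24) rose. Of 18 genes listed as endothelial transcription factors and response genes, 5 rose and 3 fell. The flow-responsive factor Klf2 (0.46), the BMP target genes Smad6 (0.45), Id3 (0.38) and Id1 (0.31), and Sox18 (0.37) rose, while Foxo1 (-0.65), which is restrained by Tek signalling, Mef2c (-0.65) and Ets1 (-0.18) fell. Of 11 other endothelial genes Egfl7 (0.45), Ramp2 (0.32) and Rasip1 (0.30) rose and the fatty acid transporter Cd36 (-0.37) fell. All these slopes are log2 per SD and passed with limma adjusted p under the threshold of 0.05. In the same fit 2 of 13 podocyte genes rose and 3 fell, and 0 of 11 proximal tubule genes rose and 2 fell. Of 9 leukocyte and platelet genes, 3 rose and 1 fell. These counts are read against the same background, and the part of these cells in the endothelial values was not tested.

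The balance of the glomerular marker Ehd3 to the peritubular capillary gene Plvap varied with podocyte RNA. Their ratio of reads averaged 0.303 ± 0.0807 (SD, n = 9) and ran from 0.180 in replicate 5 to 0.433 in replicate 9, with a median of 0.310. The log2 ratio gave r = 0.784 with the podocyte score, the mean z-score of the podocyte genes (exact permutation, two-sided p = 0.0155, adjusted p over 3 relations = 0.0459, rho = 0.800 with exact p = 0.0138). It gave r = -0.704 with the share of multiply aligned reads (exact p = 0.0306, adjusted p = 0.0459, rho = -0.583 with exact p = 0.108, and r = -0.814 once the 2 most extreme shares were left out). Podocyte score and share gave r = -0.362 (exact p = 0.351), and with the share removed the ratio and the podocyte score gave r = 0.800 (exact p = 0.0101). Replicates 4, 5, 7 and 8 lay below the other 5 in both measures, and neither set is large enough for a correlation of its own. Without the 2 most extreme podocyte scores r was 0.636, and without replicate 9 it was 0.713 (exact p = 0.0517).

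Single genes did not pass against the podocyte score in the limma fit: 0 of 9, beside 0% of 13634 tested genes, with 4 of the 9 and 2285 of all genes at an unadjusted p under 0.05. Those were Flt1 (0.40 log2 per SD, adjusted p = 0.244), Kdr (0.20, 0.248), Cdh5 (0.23, 0.258) and Tek (0.20, 0.289), all with higher levels where podocyte genes were high. edgeR's quasi-likelihood test called 0 of the 9 and 0 of all genes, and DESeq2 called 1, Flt1 (0.42, adjusted p = 0.0289), among 424 of all genes. Without replicate 1 limma also called Flt1 (0.52, adjusted p = 0.0377), among 783 of all genes. Against the proximal tubule score 0 of 9 passed in limma, edgeR or DESeq2, beside 0% of 13636 genes in limma, with Ehd3 alone of the 9 and 729 of all genes at an unadjusted p under 0.05 (Ehd3 -0.17, adjusted p = 0.904). Against the tubular injury gene Havcr1, 0 of 9 passed in limma, edgeR or DESeq2 and 0 had an unadjusted p under 0.05, beside 0% of 13646 genes passing and 498 at that unadjusted level, with Flt1 at 0.29 (adjusted p = 0.705). Against library size 0 of 9 passed in the same 3 tools, beside 0% of 13647 genes, and 3 of the 9 and 1825 of all genes had an unadjusted p under 0.05 in limma: Tek (-0.23), Cdh5 (-0.23) and Eng (0.24), each with an adjusted p of 0.371.

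For each gene the table was searched for the 2 rows with the highest correlation of log2 levels over the 9 replicates, given here as a description over libraries that share the differences in alignment described earlier. They were Golim4 (0.990) and Arhgap12 (0.987) for Tek, Edem2 (0.995) and Faap20 (0.990) for Plvap, and Ubqln4 (0.979) and LOC100360846 (0.977) for Eng. For Cdh5 they were Bmpr1b (0.976) and Kdm4a (0.962), and for Tie1 Strn4 (0.967) and Arhgap39 (0.966). Flt1 was matched by a row with no symbol (0.988) and by Rapgef2 (0.987), and Kdr by 2 rows with no symbol (0.989 and 0.968). Emcn (Acot9, 0.908, and Ccdc80, 0.891) and Ehd3 (LOC502684, 0.921, and Adamts8, 0.905) had less close neighbours. The mean z-score of all 9 genes was closest to Ptpro (0.960), a receptor phosphatase of podocytes, and Gabrp (0.953). Sgpp2 (0.940), Arhgef10 (0.930) and Slc9a2 (0.928) came next. That mean joins genes that varied in opposite directions, such as Tek and Plvap (r = -0.893), so it does not stand for each of them.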

How the data were processed

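Polyadenylated RNA from flash-frozen kidney cortex had been made into stranded libraries, per the labels' protocols. The authors deposited 1 signal value for each gene and library, its read count over a size factor, on build Rnor_5.0, with FastQC 0.11.2, MultiQC 0.9, HTSeq 0.6.1p1 and DESeq2 named in the submitters' processing notes. Neither aligner nor annotation is given in the sources used here. Low values stepped by the worth of 1 read (0.544 to 1.99 normalised reads), so whole reads were recovered from the deposited signal. All values, 100%, lay within 0.1 read of a whole number.

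The 3 rows that name no gene were left out of the gene tests. They hold reads outside genes (28.9% ± 2.93 of counted reads, SD, n = 9), reads aligned to more than 1 place (17.2% ± 2.33) and reads in more than 1 gene (0.106%). Of 18420 gene rows, 13647 with a mean of at least 10 were tested as log2 of the value plus 1, a scale that understates changes of low genes. limma 3.58.1 (R 4.3.3) fitted slopes on 5 standardised measures and compared variances with a robust trend. A gene of a score was left out of the test against that score. Adjusted p-values are Benjamini-Hochberg over all tested genes, with a threshold of 0.05. edgeR 4.0.16 and DESeq2 1.42.0 on the recovered reads were alternatives, with the authors' size factors. Correlations used exact permutation over 362880 pairings (Python 3.11.15, scipy 1.17.1), adjusted over each family of pairs. Scores are mean z-scores of marker lists.

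All 9 samples form 1 group. The genes and the 11 lists were chosen with earlier results of these data known. One list gene is not reported here. Named genes are the 9 matched genes, their ligands and partners, list genes that passed, and the most alike rows. The fits were tested on simulated data. Promoters come from RefSeq (GRCr8). That build differs from the deposited one, so promoter positions are those of GRCr8 only. Precision follows depth: the 9 genes had 276 reads or more in every library.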

Additional observations from a re-analysis of the deposited data

Results flagged for a closer look

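Of 45 values checked over the 9 replicates, 1 had a single replicate far from the others, and chance marks about 1 in 20 such groups. The share of counted reads lying outside genes was lowest in replicate 5, at 22.0%, with the next replicate at 27.2%. That is the same library that had the largest share of multiply aligned reads, the most Plvap and the least Flt1, Tek, Kdr and Cdh5. None of the 9 endothelial genes had such a replicate.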

How the results depend on the processing

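Of the results followed through the alternatives, none that passed its test turned direction. The ones followed were the slopes and pairs of the 9 genes, the partner pairs, and the Ehd3 to Plvap ratio against the podocyte score. Slopes of other genes, and that ratio against the multiply aligned share, were not followed in this way. Among pairs that did not pass, some changed sign: Flt1 with Vegfb had r = 0.0925 and Kdr with Eng r = 0.0241 with the share as a covariate, against -0.648 and -0.459 without it. Tek with Angpt1 passed in all 15, and the slopes of Flt1 and Plvap on the multiply aligned share in all 17. DESeq2 in place of limma called 1 endothelial gene on the podocyte score, where limma called 0, and leaving out single replicates gave 0 to 1. On the multiply aligned share, leaving out single replicates gave 2 to 5 genes, beside 4. Of the endothelial pairs 6 passed, beside 3 with the same total per library, 10 with Spearman's rho, 0 with the share as a covariate, and 0 to 4 without single replicates. Of the partner pairs 5 passed, beside 6 with edgeR's TMM scaling of the libraries and 4 with Spearman's rho or the same total per library. The count was 1 with the share as a covariate and 1 to 5 without single replicates. The correlation of the Ehd3 to Plvap ratio with the podocyte score ran from 0.713 to 0.861 without single replicates. Over all genes, calls on the multiply aligned share were 4774 and 1740 without replicate 5. Calls on the podocyte score were 0, beside 99 with the same total per library, 783 without replicate 1 and 424 with DESeq2, and those on the proximal tubule score were 0, beside 18 with the share as a covariate and 77 with DESeq2. The cause of these changes was not tested. No paired analysis was possible because all samples belong to 1 group. With 9 replicates of 1 group, no treatment effect can be estimated, and the multiply aligned share cannot be told apart from biological differences that follow it. The smallest depth behind an endothelial value was 276 reads, for Cdh5.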

Other observations

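Genes of other vascular compartments also differed between replicates. Summed levels of 9 mesangial and smooth muscle genes ran from 4614 normalised reads in replicate 3 to 8799 in replicate 9, of which Tagln alone made 1698 and 5123, beside 15924 in replicate 2 to 19920 in replicate 1 for the 9 endothelial genes. Summed levels of 5 lymphatic endothelial genes ran from 862.5 in replicate 7 to 1178 in replicate 1. Cldn5 ranged from 291.6 normalised reads in replicate 9 to 737.3 in replicate 1, with a median of 388.2, and Klf2 from 203.0 in replicate 3 to 609.1 in replicate 5, with a median of 337.1. Foxo1 ran the other way, from 168.4 in replicate 5 to 749.2 in replicate 6, with a median of 337.3.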
